A study of Mus musculus with 12 samples.

Results

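The comparison described here is that of infarcted mouse hearts given agrin (MI+Agrin) with infarcted hearts given phosphate-buffered saline, the vehicle (MI+PBS). Of the 12 libraries of the series, 8 carry these labels, 4 in each group and 1 library per animal, and the other 4 are sham-operated hearts, used here for levels beside the comparison. All animals were wild-type females, 12 weeks old by the labels, and each library holds poly-A RNA of the heart, with no part of the organ named. In both infarcted groups the left anterior descending coronary artery was tied off for good under isoflurane, with buprenorphine as the analgesic, and the labels put RNA extraction 2 weeks after the infarction. The labels give no dose, route, time or molecular form of the agrin. Every gene whose normalized counts averaged 5 or more across the series was taken, 14906 of 16218 in all (1700095B10Rik, at 5.0008, lay just inside and Myb, at 4.9942, just outside).

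Agrin is a large heparan sulfate proteoglycan of basement membranes, best known for clustering acetylcholine receptors at the neuromuscular junction through the receptor Lrp4. On muscle cells it also binds dystroglycan, the product of Dag1, which ties the matrix through the dystrophin complex to the actin cytoskeleton and, in cardiomyocytes, to the Hippo pathway coactivator Yap1. After an infarction the lost muscle is replaced by scar, while surviving cardiomyocytes, endothelial cells, fibroblasts and macrophages alter their transcription.

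Between 20238512 and 22742027 reads were recovered per library (11 libraries), 15799 to 15898 genes were detected, and the 24 sarcomere genes of ventricular cardiomyocytes summed to 1575221 to 2121043 normalized counts in MI+PBS and 2021636 to 2255868 in MI+Agrin. Libraries of the same group did not lie equally close together. On the first principal component of the 8 infarcted libraries, which held 26.95% of the variance, MI+Agrin replicate 1 stood at 41.38, MI+PBS replicate 2 at -33.46 and MI+PBS replicate 1 at -20.62, with the other 5 between -1.72 and 11.81. The median distance to the libraries of its own group was largest for MI+Agrin replicate 1 (0.541 log2 units) and MI+PBS replicate 2 (0.484), against 0.428 to 0.467 for the rest. MI+Agrin replicate 1 and MI+PBS replicate 2, the farthest out at either end of the first component, are also left out together below. Leaving out this pair can narrow group differences along that component. In tissue RNA, fewer cells of a type and less RNA per cell cannot be told apart.

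Among the genes lower with agrin were 10 of 34 immediate early genes, the class that cells switch on first after a stimulus. So were 6 of 31 genes that glucocorticoids induce. The gene lists were chosen with earlier results of these data known, so that counts of calls in them are a description and not a test. Among 50 endothelial markers 3 rose and 3 fell, among 33 ion channel and connexin genes 2 rose and 1 fell, and among 34 genes of adenosine, adrenergic and cAMP signalling 2 rose and 1 fell. Of the 14906 genes, 245 passed the test (1.64%), 112 of them higher (0.751%) and 133 lower (0.892%) in MI+Agrin. Differences are log2 fold changes ± SE of MI+Agrin minus MI+PBS from limma on log2(normalized count + 1), called at a Benjamini-Hochberg adjusted p under 0.05. The median difference was 0.51 among genes that rose and -0.59 among genes that fell, against 0.00 over all genes, and 10 rises and 21 falls were of 1 log2 unit or more. The 4 libraries of both groups did not overlap for 243 of the 245 genes, the exceptions being Kcnj2 and Spry2, which is part of what such a test selects, since 9.04% of all genes tested showed no overlap (4.12% with agrin higher and 4.92% with agrin lower). The count fell to 145 without MI+PBS replicate 2 and to 137 without MI+Agrin replicate 3, and to 93 when the 8 infarcted libraries were fitted without sham. The count of rises was 59 without MI+PBS replicate 2, 58 without MI+Agrin replicate 3, 72 without MI+PBS replicate 1 and 69 without MI+Agrin replicate 1 or 5. Without sham the count of rises was 32 and that of falls 61. Of the 90 genes named below that passed, 50 did so whichever library was left out, and 44, of which 41 were among these 50, did so in the fit without sham. For the other 40, the highest adjusted p with 1 library left out is given beside the gene, with that library. Of these 40 calls, those of Il4ra, Sec14l1, Clec14a and Slc2a4 ended without 1 particular library of the 12, and those of Pde4b and Adamts7 when either of 2 was left out. Creb5, Slc10a6, Nr1d1, Dtna, Gadd45g, Sgk1, Adrb1, Kcnj2, Efna1, Myrip, Adamts5, Sdpr, Fosb and Fosl2 lost theirs when any 1 of 3 to 6 libraries was left out. The remaining 20 lost their calls when any 1 of 7 to 11 libraries was left out. Medians of gene lists are given with every library whose omission moved them by over 1.5 times, except that printed medians nearer to 0 than 0.1 moved by at most 0.06 with 1 library left out.

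**Figure D1:**
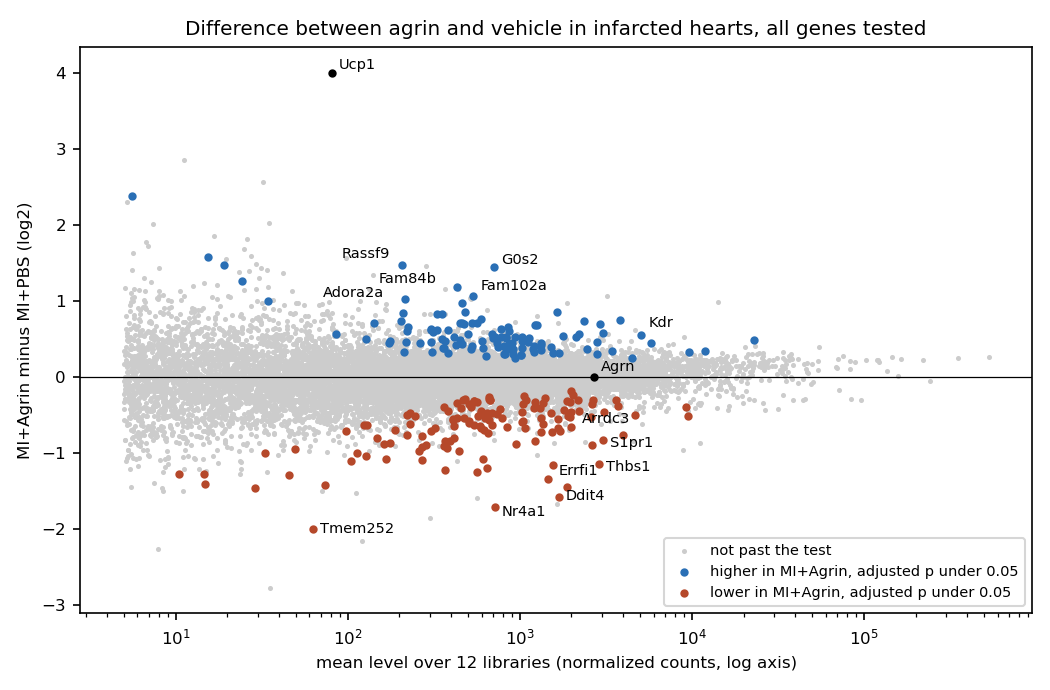
Difference between MI+Agrin and MI+PBS (log2, vertical axis) against the mean level over 12 libraries (normalized counts, log axis) for the 14906 genes tested. Blue points rose and red points fell with an adjusted p under 0.05, grey points did not pass, and the largest fitted difference, that of Ucp1 (4.00, black), did not pass, while Agrn (black) lay at 0.

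The genes that passed were higher than average in level and longer: their median level was 713 normalized counts for rises and 621 for falls against 436 over all genes, and their median summed exon length 5500.0 and 5631 bases against 4362. Their GC content, at medians of 50.8% and 49.4%, lay on either side of the 49.8% of all genes. Protein-coding models made up 111 of the 112 rises and 132 of the 133 falls. Values per library are listed below in the order of replicates 1, 2, 3 and 5 for MI+PBS and 1, 3, 4 and 5 for MI+Agrin. Sham levels are printed as means ± SD of 4 libraries. The sham and agrin comparisons share the MI+PBS libraries, so that no agreement between them is read from these values.

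Immediate early genes, which encode transcription factors and growth regulators for the most part, held more falls than rises. Of 34 measured immediate early genes, 10 fell (Fosb, Fosl2, Atf3, Nr4a1, Btg2, Maff, Myc, Csrnp1, Gadd45b and Gadd45g), 1 rose (Zfp36l1) and 23 did not pass, with a median of -0.17. Over all genes tested, 0.892% fell and 0.751% rose. Nr4a1 encodes an orphan nuclear receptor induced by calcium and cyclic AMP signals. It stood at 1669.6, 1139, 1150.3 and 853 normalized counts in MI+PBS and 448, 248, 297 and 501 in MI+Agrin. The highest agrin library lay below the lowest vehicle library, and the difference was -1.70 ± 0.23 (adjusted p = 0.00306). The sham level was 579 ± 98.2, above the agrin mean of 373 ± 121.

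Atf3, a stress-induced partner and repressor of AP-1, was at 824, 1001, 1347 and 1216 normalized counts in MI+PBS and 612, 493, 514 and 445 in MI+Agrin, with a difference of -1.07 ± 0.14 (adjusted p = 0.00224). Its sham level was 222 ± 18.5, lower than in any infarcted library. The AP-1 subunit gene Fosb (-1.29 ± 0.27) and Fosl2 (-0.46 ± 0.09), the small Maf gene Maff (-0.66 ± 0.12), Csrnp1 (-0.61 ± 0.09), a nuclear protein with transcriptional activity, and the growth regulator Myc (-0.77 ± 0.17) fell as well. Gadd45g (-0.97 ± 0.19) and Gadd45b (-0.47 ± 0.11), stress sensors of growth arrest, and Btg2 (-0.53 ± 0.12), an antiproliferative cofactor, completed the falls. Zfp36l1, which binds AU-rich elements and speeds the decay of messenger RNAs of this class, was at 1704, 1735, 1763 and 2036 normalized counts in MI+PBS and 2475, 2826, 2538 and 2628 in MI+Agrin, with no overlap and a rise of 0.53 ± 0.07 (adjusted p = 0.002). Exons of an antisense gene cover 55.9% of its bases, so that its count is uncertain.

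Nr4a1, Atf3, Csrnp1, Maff and Zfp36l1 passed the test with any 1 library left out. The other calls among these genes each ended without at least 1 library. Without MI+Agrin replicate 3, the adjusted p was 0.109 for Fosb, 0.0735 for Fosl2, 0.0647 for Gadd45g, 0.118 for Gadd45b and 0.125 for Myc. Without MI+PBS replicate 2 it was 0.127 for Btg2. The number of immediate early genes that fell was 4 without MI+PBS replicate 2 or MI+Agrin replicate 3, 5 without MI+PBS replicate 5 or MI+Agrin replicate 4, 6 without MI+PBS replicate 1 or MI+Agrin replicate 1, 7 without MI+Agrin replicate 5 and 9 without MI+PBS replicate 3. It was 3 without both MI+PBS replicate 2 and MI+Agrin replicate 1, with a median of -0.15. The median was -0.10 without MI+Agrin replicate 3 and -0.26 without MI+Agrin replicate 5, and the adjusted p of Maff without the pair was 0.074.

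Of 19 Kruppel-like and RUNX genes, 1 rose (Runx1t1) and 2 fell (Klf13 and Runx3), where 1.64% of all genes tested passed. Klf13, a Kruppel-like factor, was at 2289.6, 2227, 2484 and 2500.5 normalized counts in MI+PBS and 1544, 1574, 1731 and 1799 in MI+Agrin, without overlap and with a difference of -0.52 ± 0.07 (adjusted p = 0.00392). Creb5, a bZIP factor of the CREB family on none of the lists, fell, with -0.80 ± 0.15 (adjusted p = 0.0188), and was chosen after its values were seen. Runx3, a RUNX factor of lymphocytes, was at 157, 154, 93.0 and 110.4 normalized counts in MI+PBS and 28.4, 47.4, 59.1 and 57.4 in MI+Agrin and fell with -1.42 ± 0.23 (adjusted p = 0.00823). Fitted without sham, the adjusted p of Runx3 was 0.0511. On the list of T and NK cell markers, which holds Runx3, the other 13 measured genes summed to 851 to 1369 normalized counts in MI+PBS and 719 to 904 in MI+Agrin. None of these 13 passed, Cd3d, Gzmb, Ncr1 and Prf1 had means under 5, and the part of these cells in the level of Runx3 was not tested. The call of Creb5 ended without MI+Agrin replicate 3 (adjusted p = 0.0661).

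Promoters of the genes that passed were searched for motifs known from genes of these classes, as a description without a test. RefSeq windows (build GRCm38.p6, 250 bases before to 50 after each start) were found for 106 of the 133 genes that fell, 81 of the 112 that rose and 11800 of all genes tested. The palindromic cAMP response element TGACGTCA, searched on both strands, was in windows of 8 of the 106 genes that fell (7.55%), of 0 of the 81 that rose, and of 396 of the 11800 (3.36%). Genes with several starts have several windows, and per window the shares were 5.16% for genes that fell, 2.82% for all genes tested and 1.79% for all RefSeq windows. The 8 genes were Errfi1, Slc25a25, Maff, Creb5, Btg2, Lrrc8a, Dcun1d3 and 9330159F19Rik. The first 5 are shown because their levels are described here, with the motif in capitals, 30 bases to each side and the strand of the gene.
Errfi1: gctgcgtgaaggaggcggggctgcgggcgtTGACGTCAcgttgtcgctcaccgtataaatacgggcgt
Slc25a25: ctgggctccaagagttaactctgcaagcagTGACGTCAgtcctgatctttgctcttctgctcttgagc
Maff: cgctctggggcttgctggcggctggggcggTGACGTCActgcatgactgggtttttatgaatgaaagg
Creb5: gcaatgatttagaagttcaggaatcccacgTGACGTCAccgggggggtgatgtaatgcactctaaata
Btg2: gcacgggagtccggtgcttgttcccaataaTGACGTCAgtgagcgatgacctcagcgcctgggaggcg
These stretches lie at chr4:150854989-150855056 (plus strand), chr2:32424179-32424246 (minus), chr15:79347461-79347528 (plus), chr6:53287228-53287295 (plus) and chr1:134079284-134079351 (minus). In the Creb5 window the first 2 bases of the element are also the last 2 of an E-box (CACGTG).

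A palindromic glucocorticoid response element, searched on both strands as GNACA and TGTNC with any 3 bases between them, was in windows of 3 of the 106 genes that fell (2.83%), of 0 of the 81 that rose and of 55 of the 11800 (0.466%). The 3 genes, Sgk1, Kcna5 and Slc10a6, are shown in the same way.
Sgk1: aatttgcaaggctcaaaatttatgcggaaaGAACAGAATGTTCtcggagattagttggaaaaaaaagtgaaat
Kcna5: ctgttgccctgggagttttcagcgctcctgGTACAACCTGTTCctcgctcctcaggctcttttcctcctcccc
Slc10a6: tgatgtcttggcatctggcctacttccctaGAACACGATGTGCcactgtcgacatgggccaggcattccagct
They lie at chr10:21993672-21993744 (plus), chr6:126535572-126535644 (minus) and chr5:103629524-103629596 (minus). The AP-1 site TGACTCA was in windows of 9.43% of genes that fell, 2.47% of genes that rose and 4.82% of all genes tested. The E-box CACGTG was in 14.2%, 7.41% and 11.4%, and the forkhead site TGTTTAC in 1.89%, 3.70% and 3.14%. A match of letters is not a binding site, and windows of this length leave most regulatory sequence unread.

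Glucocorticoids act through a nuclear receptor to induce stress, metabolic and anti-inflammatory genes. Of 31 such genes measured, 6 fell, none rose and 25 did not pass, with a median of -0.33, beside 0.892% of all genes tested that fell. The 6 were Per1, Ddit4, Errfi1, Sgk1, Tsc22d3 and Cebpb, and Per1, Ddit4 and Errfi1 are induced by other signals as well. Per1, a repressor of the circadian clock, was at 2862, 2457, 2516 and 2139.8 normalized counts in MI+PBS and 1277, 504, 981 and 1085 in MI+Agrin, with a difference of -1.45 ± 0.22 (adjusted p = 0.00464). MI+Agrin replicate 3 was the lowest of the 8 libraries, and the sham level was 2163 ± 129. Ddit4, which restrains the growth kinase mTORC1 under stress, was at 2717, 1846, 3094 and 2454 normalized counts in MI+PBS and 1234, 618, 811 and 789 in MI+Agrin, with -1.57 ± 0.20 (adjusted p = 0.002) and a sham level of 1670.2 ± 248. Every agrin library was below every vehicle library for both genes.

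Tsc22d3, the glucocorticoid-induced leucine zipper, was at 4869, 3988, 6194 and 4657 normalized counts in MI+PBS and 3617, 2174, 2577 and 3343 in MI+Agrin, with a difference of -0.76 ± 0.17 (adjusted p = 0.0423). Sgk1, a serum and glucocorticoid-induced kinase that acts on ion transporters, fell, with -0.67 ± 0.14 (adjusted p = 0.0286), and the bZIP factor gene Cebpb with -0.53 ± 0.09 (adjusted p = 0.00983), 20.7% of whose exon bases overlap an antisense gene. Slc10a6, a carrier of sulfated steroids chosen after its values were seen, was at 314, 389, 404 and 491 normalized counts in MI+PBS and 185, 189.5, 244 and 217 in MI+Agrin, with -0.92 ± 0.18 (adjusted p = 0.0188). The call of Tsc22d3 ended without MI+Agrin replicate 3 (adjusted p = 0.111), as did those of Sgk1 (0.095) and Slc10a6 (0.0667). The number of genes of this list that fell was 4 to 8 with 1 of the 8 libraries left out and 9 without both MI+PBS replicate 2 and MI+Agrin replicate 1. Without that pair the median was -0.34, without MI+PBS replicate 3 it was -0.21 and without MI+PBS replicate 5 it was -0.18. Fitted without sham, the adjusted p of Cebpb was 0.0502.

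Among the 20 clock genes, 1 rose and 1 fell, with a median of 0.23 (0.13 without MI+PBS replicate 5), where 1.64% of all genes tested passed. Nr1d1, the clock repressor Rev-erb alpha, was at 2155, 1513, 2061 and 2456 normalized counts in MI+PBS and 2627, 3961, 3142 and 3481 in MI+Agrin and rose with 0.70 ± 0.14 (adjusted p = 0.0265), whereas Per1 fell. The call of Nr1d1 ended without MI+Agrin replicate 3 (adjusted p = 0.0815), and the labels give no hour of tissue collection.

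Feedback inhibitors of growth factor and insulin signals went in both directions. Errfi1 encodes an inhibitor that binds receptors of the EGF receptor family. It was at 2327, 2439, 2132 and 1549 normalized counts in MI+PBS and 1014, 690.0, 803 and 803 in MI+Agrin, with no overlap, a difference of -1.34 ± 0.14 (adjusted p = 0.000437) and a sham level of 1453 ± 74.5. Of 28 genes of ERK feedback and ErbB signalling, Errfi1 alone fell, and Dusp7 and Spry2 rose, with a median of 0.00. Over all genes tested 1.64% passed. Dusp7, a phosphatase that inactivates ERK, was at 642, 562, 776 and 720.5 normalized counts in MI+PBS and 1034, 1004, 1082 and 957 in MI+Agrin and rose with 0.60 ± 0.09 (adjusted p = 0.0064). Spry2, an inhibitor of receptor tyrosine kinase signals, rose with 0.44 ± 0.10 (adjusted p = 0.0483), although its groups overlapped and its call ended without MI+Agrin replicate 3 (adjusted p = 0.118).

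Of 33 genes of FoxO, insulin and mTOR brakes, Irs2 and Ddit4 fell and Foxo3 rose, where 1.64% of all genes tested passed. The median of this list was 0.15 (0.08 without MI+PBS replicate 2, and 0.07 without it and MI+Agrin replicate 1). Irs2, an adaptor of the insulin receptor, was at 453, 415, 316 and 376 normalized counts in MI+PBS and 183, 163, 168 and 216 in MI+Agrin, with a difference of -1.09 ± 0.12 (adjusted p = 0.000975) and a mean of 183 ± 24.1 beside a sham level of 240.0 ± 23.2. Foxo3, a transcription factor held out of the nucleus by insulin signals, was at 671 to 993 normalized counts in MI+PBS and 1098 to 1335 in MI+Agrin and rose with 0.52 ± 0.12 (adjusted p = 0.0452), a call that ended without MI+Agrin replicate 3 (adjusted p = 0.107). The smallest p of all belonged to Arrdc3, an alpha-arrestin that acts on receptor trafficking. Its levels were 2682, 2610.2, 2358 and 2579 normalized counts in MI+PBS and 1693, 1497, 1654 and 1635 in MI+Agrin, close together within each group, with -0.66 ± 0.05 (adjusted p = 0.000204) and a sham level of 1805 ± 57.5.

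Sik1 and Akap12, which are on none of the lists, were among the falls with the smallest p. Sik1, a salt-inducible kinase that restrains the coactivators of CREB, was at 2624, 1904, 1943 and 1912 normalized counts in MI+PBS and 1023, 817, 888 and 1021 in MI+Agrin, with a difference of -1.15 ± 0.12 (adjusted p = 0.000437). MI+PBS replicate 1 was the highest library, and the other 3 vehicle libraries lay within 1904 to 1943. Akap12, a scaffold that anchors protein kinases A and C, was at 3950.4, 3819.8, 2643 and 3422 normalized counts in MI+PBS and 1945, 1729, 1860.3 and 1846 in MI+Agrin, with -0.89 ± 0.10 (adjusted p = 0.000944). Of 34 genes of adenosine, adrenergic and cAMP signalling, 2 rose (Adora2a and Adrb1) and 1 fell (Pde4b), with a median of 0.05. Over all genes tested 1.64% passed. Adora2a, an adenosine receptor of vessels and leukocytes that raises cyclic AMP, was at 119, 115, 141 and 141 normalized counts in MI+PBS and 222, 270.5, 294 and 269 in MI+Agrin. All 4 agrin libraries were above 200 and all vehicle libraries below 150, the difference was 1.03 ± 0.11 (adjusted p = 0.000759), and the sham level was 257 ± 23.1.

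Adrb1, the main beta-adrenergic receptor of cardiomyocytes, was at 257, 166, 235 and 234 normalized counts in MI+PBS and 400.3, 453, 423 and 309 in MI+Agrin, a rise of 0.83 ± 0.16 (adjusted p = 0.0226), and Pde4b, which breaks down cyclic AMP, fell, with -0.40 ± 0.08 (adjusted p = 0.0175). The calls ended without MI+Agrin replicate 3 for Adrb1 (adjusted p = 0.0799) and without MI+PBS replicate 1 for Pde4b (0.0561). Slc25a25, a mitochondrial carrier of ATP-magnesium and phosphate whose promoter is shown above, is on none of the lists and was chosen after its values were seen. It was at 599.6, 605, 452 and 445 normalized counts in MI+PBS and 346, 249.7, 244 and 330.1 in MI+Agrin and fell with -0.85 ± 0.14 (adjusted p = 0.00823). Fitted without sham, its adjusted p was 0.0502.

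**Figure D2:**
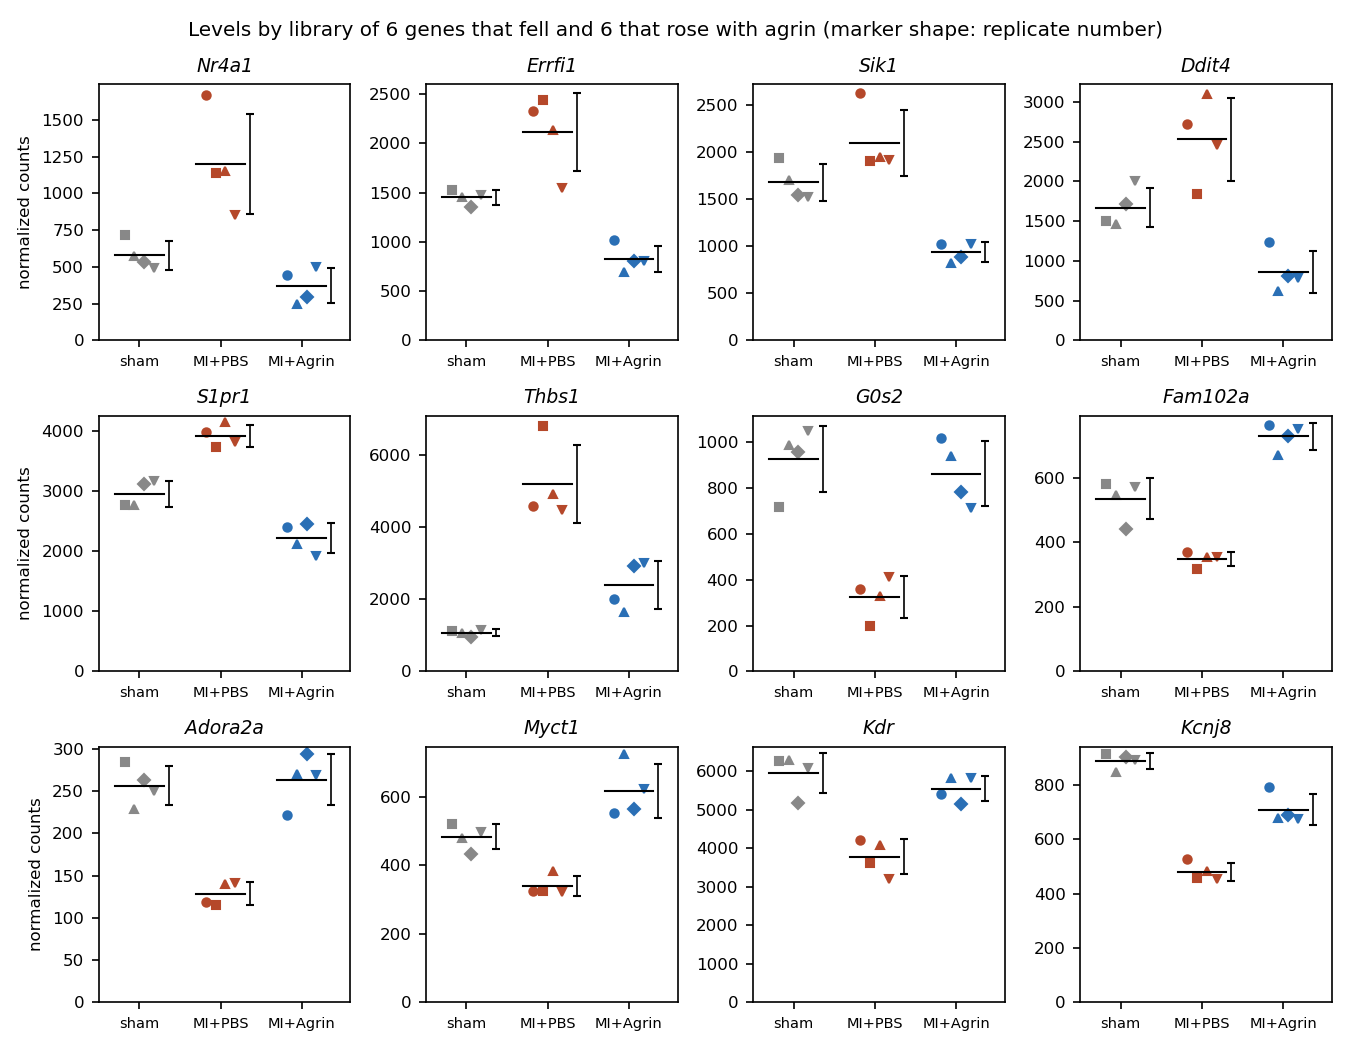
Normalized counts (vertical axes, from 0) in each library of the sham, MI+PBS and MI+Agrin groups for 6 genes that fell (Nr4a1, Errfi1, Sik1, Ddit4, S1pr1 and Thbs1) and 6 that rose (G0s2, Fam102a, Adora2a, Myct1, Kdr and Kcnj8) with agrin. Marker shapes are replicate numbers, horizontal lines are means and bars are SDs of 4 libraries. No agrin library overlaps the vehicle libraries in any panel. All genes shown had passed the test, and 243 of the 245 genes that passed do not overlap, so that this adds no support.

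Signalling by lysophospholipids, which controls vessel tightness and the movement of leukocytes, held falls of receptors and of an enzyme. Of 20 genes, 3 fell (S1pr1, Sphk1 and Lpar1), beside 0.892% of all genes tested, none rose, and the median was 0.04. S1pr1, the sphingosine phosphate receptor of endothelium and lymphocytes, was at 3988, 3729, 4148 and 3822 normalized counts in MI+PBS and 2406, 2113, 2447 and 1926 in MI+Agrin. The groups were far apart, at -0.82 ± 0.08 (adjusted p = 0.000437), and the sham level of 2956 ± 218 lay between them. Sphk1, a kinase that makes sphingosine phosphate, was at 248.8, 377, 247 and 332 normalized counts in MI+PBS and 132, 114, 184 and 138 in MI+Agrin, with a difference of -1.08 ± 0.17 (adjusted p = 0.00703) and 60.1 ± 6.31 in sham. Lpar1, a receptor of lysophosphatidic acid, fell with -0.37 ± 0.08 (adjusted p = 0.0428), a call that ended without MI+Agrin replicate 3 (adjusted p = 0.127).

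Endothelial genes moved in both directions while the sum of the list stayed similar. Of 50 measured endothelial markers, 3 rose (Kdr, Myct1 and Clec14a), 3 fell (Esam, Cd93 and Rgcc) and 44 did not pass, with a median of 0.02, and their sums were 127592 to 147671 normalized counts in MI+PBS and 136468 to 152843 in MI+Agrin. Over all genes tested, 0.751% rose and 0.892% fell. Kdr, the main receptor for VEGF, was at 4204, 3623, 4093 and 3207 normalized counts in MI+PBS and 5414, 5812, 5149 and 5818 in MI+Agrin. The agrin libraries all lay above the vehicle libraries, with 0.56 ± 0.09 (adjusted p = 0.00756), and the sham level was 5954 ± 524. Myct1, a membrane protein of endothelium, was at 326, 325, 382 and 322 normalized counts in MI+PBS and 554, 726, 565 and 624 in MI+Agrin, with 0.86 ± 0.10 (adjusted p = 0.000852).

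Clec14a, a lectin-like receptor of growing vessels, rose with 0.52 ± 0.10 (adjusted p = 0.0147), and Pcdh12, a protocadherin of endothelial junctions that is on none of the lists, was at 410.1, 436, 327 and 347 normalized counts in MI+PBS and 495, 782, 539.7 and 816 in MI+Agrin, with 0.77 ± 0.16 (adjusted p = 0.0367). The prostacyclin receptor gene Ptgir, which relaxes vessels and restrains platelets, was at 166, 157, 136 and 181 normalized counts in MI+PBS and 246, 283, 309.7 and 236 in MI+Agrin, with 0.74 ± 0.13 (adjusted p = 0.0105). In the other direction, Rgcc, a cell cycle regulator high in cardiac capillaries, was at 880.5, 641, 804 and 809 normalized counts in MI+PBS and 330.4, 268, 445 and 289 in MI+Agrin, with a difference of -1.25 ± 0.17 (adjusted p = 0.00255). Esam, an adhesion molecule of endothelial junctions, was at 2247 to 2309 normalized counts in MI+PBS and 1661 to 1908 in MI+Agrin and fell with -0.32 ± 0.05 (adjusted p = 0.00855), and Cd93, a lectin-like receptor, fell with -0.50 ± 0.11 (adjusted p = 0.0358). The calls of Clec14a and Pcdh12 ended without MI+Agrin replicate 3 (adjusted p = 0.0514 and 0.112) and that of Cd93 without MI+PBS replicate 2 (0.0997).

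Of 30 genes of VEGF and angiopoietin signalling, Kdr rose and Hif1a and Thbs1 fell, with a median of -0.03, where 1.64% of all genes tested passed. Hif1a, the oxygen-sensing factor that drives VEGF expression, was at 4672, 5149.6, 4716 and 4310.1 normalized counts in MI+PBS and 3282, 3780.5, 3731 and 3659.6 in MI+Agrin, without overlap, and fell with -0.38 ± 0.06 (adjusted p = 0.00796), or an adjusted p of 0.0502 fitted without sham. Thbs1, the matricellular inhibitor of vessel growth thrombospondin 1, was at 4583, 6813, 4933 and 4474 normalized counts in MI+PBS and 2012, 1651, 2914 and 3021 in MI+Agrin, with a difference of -1.14 ± 0.18 (adjusted p = 0.00756). MI+PBS replicate 2 was the highest, the agrin libraries still lay above the sham level of 1075 ± 93.2, and without that library and MI+Agrin replicate 1 the adjusted p was 0.0446. Thbs1 was the only gene to pass on the list of recruited macrophages and monocytes, whose 23 genes summed to 76685 to 116858 normalized counts in MI+PBS and 54403 to 83377 in MI+Agrin. These sums include Thbs1 itself and Fn1, which is also on the myofibroblast list. Fn1 alone stood at 31208 to 49933 normalized counts in MI+PBS and 20295 to 34046 in MI+Agrin. The part of macrophages and monocytes in the level of Thbs1 was not tested.

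Guidance molecules and vessel-wall genes also held calls, where 1.64% of all genes tested passed. Of 43 semaphorin, ephrin, Slit and netrin genes, Sema7a and Sema6b fell and Efna1 rose, with a median of 0.05. Sema7a, a membrane-anchored semaphorin, was at 1927, 1739, 1789 and 1569 normalized counts in MI+PBS and 951, 1113, 1111 and 1077 in MI+Agrin, with -0.72 ± 0.07 (adjusted p = 0.000437). Sema6b fell with -0.64 ± 0.13 (adjusted p = 0.0357), and Efna1, an ephrin ligand induced in endothelium by inflammatory signals, rose with 0.47 ± 0.09 (adjusted p = 0.0208). Of 21 pericyte and smooth muscle markers, Kcnj8 and Rgs4 rose and none fell, with a median of -0.06 and sums of 99184 to 105207 normalized counts in MI+PBS and 93033 to 100032 in MI+Agrin. Kcnj8, a pore subunit of the ATP-sensitive potassium channel of pericytes, was at 527, 459, 483 and 455 normalized counts in MI+PBS and 795, 678, 692 and 676 in MI+Agrin. All agrin libraries were higher, with 0.56 ± 0.07 (adjusted p = 0.00165), and below the sham level of 889.6 ± 29.1. Rgs4, a brake on G protein signals, rose with 0.52 ± 0.12 (adjusted p = 0.0468). Calls ended without MI+PBS replicate 2 for Sema6b (adjusted p = 0.0997) and Rgs4 (0.129), and without MI+Agrin replicate 3 for Efna1 (0.0667).

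Calls among ion channel genes went in both directions, where 1.64% of all genes tested passed. Of 33 potassium and sodium channel and connexin genes, Kcnj2 and Kcnj8 rose, Kcna5 fell and 30 did not pass, with a median of 0.19 (0.12 without MI+PBS replicate 2, and 0.06 without it and MI+Agrin replicate 1). Kcna5, the pore of the ultrarapid potassium current, was at 902, 729, 807 and 865 normalized counts in MI+PBS and 366, 255, 502 and 358 in MI+Agrin. MI+Agrin replicate 3 was the lowest, the difference was -1.19 ± 0.16 (adjusted p = 0.00318), and the sham level was 747 ± 105 beside 826 ± 75.2 in MI+PBS. Kcnj2, the inward rectifier that holds the resting potential, was at 899.9, 836, 1534 and 1027 normalized counts in MI+PBS and 1935, 2163, 1519.6 and 1996 in MI+Agrin. MI+PBS replicate 3, at 1534, lay above the lowest agrin library, the difference was 0.85 ± 0.16 (adjusted p = 0.0182), and the call ended without MI+Agrin replicate 3 (adjusted p = 0.0667). Rrad, a small GTPase that inhibits L-type calcium channels, was at 3156, 2369.7, 3379.7 and 2857 normalized counts in MI+PBS and 5208, 6327, 4554 and 3853 in MI+Agrin and rose with 0.75 ± 0.16 (adjusted p = 0.0411), a call that ended without MI+PBS replicate 2 (adjusted p = 0.113).

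Structural genes, of heart muscle and others, also held calls, where 1.64% of all genes tested passed. The Z-disc gene Tcap was at 12838 to 17844 normalized counts in MI+PBS and 19990.0 to 23830.1 in MI+Agrin and was the only 1 of 24 sarcomere genes to pass, with 0.49 ± 0.11 (adjusted p = 0.0493). Myzap, a protein of the intercalated disc, rose with 0.35 ± 0.08 (adjusted p = 0.0452), and Dtna, the dystrobrevin of the dystrophin complex, was at 1290.1 to 1525 normalized counts in MI+PBS and 1582 to 1812 in MI+Agrin and rose with 0.32 ± 0.06 (adjusted p = 0.0179). Xirp1, a stress-responsive protein of the intercalated disc, was at 10602 to 12735 normalized counts in MI+PBS and 8368 to 9814 in MI+Agrin and fell with -0.39 ± 0.08 (adjusted p = 0.0382). It alone passed among 24 fetal and stress genes of cardiomyocytes, 20 of which lay at or below 0 (median -0.30, and -0.14 without MI+PBS replicate 2 and MI+Agrin replicate 1). Myh9, the non-muscle myosin heavy chain (-0.51 ± 0.11, adjusted p = 0.0368), fell too. So did Zyx, a focal adhesion protein (-0.46 ± 0.08, adjusted p = 0.00823), the only 1 of 34 integrin and focal adhesion genes to pass. Of the structural genes named here, Zyx kept its call with any 1 library left out. The others lost it, with an adjusted p of 0.122 for Tcap without MI+Agrin replicate 1, 0.0997 for Xirp1 without MI+PBS replicate 2, and 0.138, 0.0667 and 0.114 for Myzap, Dtna and Myh9 without MI+Agrin replicate 3.

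Single metabolic genes rose. G0s2, which inhibits the triglyceride lipase of lipid droplets, was at 362, 199, 329.7 and 411 normalized counts in MI+PBS and 1021, 939.7, 783 and 713 in MI+Agrin. All agrin libraries were above 700, all vehicle libraries below 420, and the sham level was 929 ± 145, with a difference of 1.44 ± 0.20 (adjusted p = 0.00318). G0s2 is also on the list of neutrophil markers, of which no other member passed. Without it the other 9 measured members summed to 1117 to 1861 normalized counts in MI+PBS and 1485 to 2274 in MI+Agrin, ranges that overlap. Slc2a4, the insulin-responsive glucose transporter, was at 6870.4 to 7988 normalized counts in MI+PBS and 9231 to 10105 in MI+Agrin and rose with 0.33 ± 0.06 (adjusted p = 0.0175). Aldh6a1, a mitochondrial enzyme of valine breakdown, rose with 0.45 ± 0.10 (adjusted p = 0.0378), and 18.6% of its exon bases overlap an antisense gene. The calls of Slc2a4 and Aldh6a1 ended without MI+Agrin replicate 1 (adjusted p = 0.0525 and 0.0966).

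Several genes with the smallest p among the rises belong to none of the lists. Fam102a was at 369, 316, 354 and 356 normalized counts in MI+PBS and 764, 670.2, 729 and 752 in MI+Agrin, with every agrin library above every vehicle and sham library (sham 536 ± 63.9) and a difference of 1.06 ± 0.09 (adjusted p = 0.000204). Fam84b was at 213, 293, 277 and 268 normalized counts in MI+PBS and 602, 581, 634 and 562 in MI+Agrin, with 1.18 ± 0.11 (adjusted p = 0.000437), but 41.8% of its exon bases overlap the antisense gene 9930014A18Rik. Tob1, an antiproliferative protein of messenger RNA deadenylation, was at 938, 835, 1007 and 956 normalized counts in MI+PBS and 1557, 1617, 1286 and 1549 in MI+Agrin, with 0.68 ± 0.08 (adjusted p = 0.000835). Rin2, an exchange factor for the endosomal GTPase Rab5, was at 1156, 1245, 1244 and 1143 normalized counts in MI+PBS and 1532, 1559.6, 1679 and 1623 in MI+Agrin, with 0.42 ± 0.05 (adjusted p = 0.00206) and a sham level of 1193 ± 57.1 close to that of MI+PBS (1197 ± 55.1). Plekhh3 was at 313 to 403 normalized counts in MI+PBS and 526 to 633 in MI+Agrin (0.70 ± 0.09, adjusted p = 0.002) and Rassf9, a protein with a Ras-association domain, at 123, 71.8, 134 and 118 normalized counts in MI+PBS and 327, 396, 255 and 259 in MI+Agrin (1.47 ± 0.21, adjusted p = 0.00321).

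Further rises named for their size were Ahr (0.83 ± 0.14), the aryl hydrocarbon receptor, Tfdp2 (0.74 ± 0.14), a dimer partner of E2F factors, St8sia4 (0.71 ± 0.12), a polysialyltransferase, and Myrip (0.85 ± 0.17), a linker of Rab27 to myosin. Without MI+PBS replicate 2 and MI+Agrin replicate 1 the adjusted p of Ahr was 0.0872. Fitted without sham, that of Tfdp2 was 0.0841 and that of St8sia4 0.0502. The call of Myrip ended without MI+PBS replicate 2 (adjusted p = 0.0896). Sdpr, a cavin of caveolae, rose by little but was highly expressed, at 3459 to 3778 normalized counts in MI+PBS and 4108 to 4642 in MI+Agrin with 0.25 ± 0.05 (adjusted p = 0.0269). Without MI+Agrin replicate 3 its adjusted p was 0.0795. Runx1t1, a transcriptional corepressor, rose with 0.71 ± 0.14 (adjusted p = 0.0188), or an adjusted p of 0.0677 fitted without sham. Tnfsf10, the death ligand TRAIL, was at 291, 237, 281 and 237 normalized counts in MI+PBS and 461, 619, 529 and 459 in MI+Agrin, with no overlap and 0.98 ± 0.12 (adjusted p = 0.002). Adamts7 (0.52 ± 0.10) and Adamts5 (0.47 ± 0.10), secreted proteases of matrix proteins, were the rises among 34 matrix proteases and inhibitors, none of which fell and whose median was -0.27 (-0.17 without MI+PBS replicate 2 and MI+Agrin replicate 1). Over all genes tested, 0.751% rose. Without MI+PBS replicate 1 the adjusted p of Adamts7 was 0.0644, and without MI+Agrin replicate 5 that of Adamts5 was 0.0801.

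The lists of TGF-beta and BMP, Notch and Wnt genes gave 1 call each, where 1.64% of all genes tested passed. The growth factor gene Bmp4 was the only member to pass among 35 genes of TGF-beta and BMP signalling, at 146 to 212 normalized counts in MI+PBS and 244 to 295 in MI+Agrin (0.61 ± 0.14, adjusted p = 0.0442). Hey2, a Notch target that is expressed in cardiomyocytes and arteries, was the only 1 of 18 Notch genes, with a rise of 0.47 ± 0.11 (adjusted p = 0.0483). Fzd4, a Wnt and Norrin receptor, was the only 1 of 32 Wnt genes, at 1329 to 1513 normalized counts in MI+PBS and 1029 to 1213 in MI+Agrin, and fell with -0.34 ± 0.06 (adjusted p = 0.0147). With libraries left out, the adjusted p of Bmp4 reached 0.112 without MI+Agrin replicate 1 and that of Hey2 0.139 without MI+Agrin replicate 3, while that of Fzd4 stayed under 0.05 with any 1 library left out and was 0.0696 fitted without sham.

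Further falls came from varied classes. The largest, Tmem252, a small membrane protein, was at 113, 112, 128 and 143 normalized counts in MI+PBS and 41.5, 19.7, 30.04 and 32.9 in MI+Agrin, a difference of -2.00 ± 0.29 (adjusted p = 0.00438) from a low level. Tiparp, a mono-ADP-ribosyltransferase induced by the aryl hydrocarbon receptor, was at 872, 936, 877 and 824 normalized counts in MI+PBS and 551, 522, 612 and 584 in MI+Agrin, with -0.63 ± 0.06 (adjusted p = 0.000437). Mgat4a, a glycosyltransferase of branched N-glycans, was at 1339, 1410.3, 1294 and 1323 normalized counts in MI+PBS and 676, 619, 840.1 and 792 in MI+Agrin, with -0.88 ± 0.10 (adjusted p = 0.000759), and Atp8b1, a phospholipid flippase, at 802, 952, 840.3 and 754 normalized counts in MI+PBS and 509.8, 506, 539.7 and 539.9 in MI+Agrin, with -0.67 ± 0.08 (adjusted p = 0.000875). Sla, an adaptor that dampens antigen receptor signals, was at 589.9 to 643 normalized counts in MI+PBS and 174 to 388 in MI+Agrin and fell with -1.22 ± 0.21 (adjusted p = 0.0105), and the orphan receptor gene Gprc5a at 142 to 169.8 normalized counts in MI+PBS and 50.8 to 98.3 in MI+Agrin with -1.10 ± 0.19 (adjusted p = 0.0122). Sec14l1, named for its level, fell with -0.29 ± 0.05 (adjusted p = 0.0147). Il4ra, a receptor chain for interleukins that drive alternative macrophage activation, was at 2645 to 3531 normalized counts in MI+PBS and 1782 to 2346 in MI+Agrin and fell with -0.52 ± 0.10 (adjusted p = 0.0178). It was the only fall among 38 genes of interleukins, the TNF family and receptors, where Tnfsf10 was the only rise. Over all genes tested 1.64% passed. Chac1, which degrades glutathione and is a target of the stress factor ATF4, fell with -0.63 ± 0.13 (adjusted p = 0.038), 1 of 31 genes of the unfolded protein and ATF4 response. Fitted without sham, the adjusted p of Gprc5a was 0.0646. The calls of Sec14l1 and Il4ra ended without MI+Agrin replicate 3 (adjusted p = 0.0566 and 0.0603) and that of Chac1 without MI+PBS replicate 2 (0.107).

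Collagen, collagen processing, myofibroblast and mitotic genes gave no call, although most lay below 0. Of 33 genes of the provisional and elastic matrix, 27 were below 0 (median -0.28), and Thbs1, described above, was the only 1 to pass. All 21 collagen chains had a negative difference, with a median of -0.29, and none passed. The members with the smallest p were Col14a1 (-0.33 ± 0.11, adjusted p = 0.156) and Col18a1 (-0.43 ± 0.15, adjusted p = 0.173). Of 24 collagen processing genes none passed (median -0.16), with Fkbp14 (-0.31 ± 0.09, adjusted p = 0.114), a collagen prolyl isomerase, and the cross-linking oxidase Loxl2 (-0.58 ± 0.21, adjusted p = 0.17) the nearest. Among 20 myofibroblast markers (median -0.33) the nearest were Acta2, smooth muscle actin (-0.45 ± 0.14, adjusted p = 0.122), at 8791 to 11548 normalized counts in MI+PBS and 5962 to 8523 in MI+Agrin, and the fibronectin gene Fn1 (-0.44 ± 0.17, adjusted p = 0.209). The sums of the myofibroblast markers were 79996 to 117257 normalized counts in MI+PBS and 54227 to 87037 in MI+Agrin, which overlap. Fn1, which the list of recruited macrophages shares, stood at 31208 to 49933 normalized counts in MI+PBS and 20295 to 34046 in MI+Agrin.

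Of 43 genes of mitosis and DNA replication, 42 lay below 0 with a median of -0.49, and none passed. The 2 with the smallest p were Pcna, the replication clamp, at 478, 706, 440.3 and 496 normalized counts in MI+PBS and 419.6, 384, 393 and 416 in MI+Agrin (-0.37 ± 0.12, adjusted p = 0.136), and Tyms, which makes thymidylate, at 267, 483, 233 and 303 normalized counts in MI+PBS and 166, 203, 240.3 and 218 in MI+Agrin (-0.59 ± 0.20, adjusted p = 0.152). MI+PBS replicate 2 was the highest vehicle library for both. Without MI+PBS replicate 2 and MI+Agrin replicate 1 the medians were -0.24 for mitosis, -0.13 for collagen chains, -0.05 for collagen processing, -0.13 for myofibroblasts -0.12 for the provisional and elastic matrix, and -0.09 for recruited macrophages (-0.35 with all libraries), with 2 of 21 collagen chains and 2 of 43 mitotic genes above 0. Single libraries moved them too. The median without MI+PBS replicate 2 was -0.31 for mitosis, -0.19 for the provisional and elastic matrix and -0.22 for recruited macrophages, and without MI+Agrin replicate 1 it was -0.19 for collagen chains, -0.21 for myofibroblasts and -0.22 for recruited macrophages. Genes of a list share libraries and often cells, so that a common sign over a list is not a count of independent results.

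Most genes of oxidative phosphorylation, fatty acid oxidation and the citric acid cycle lay above 0, also without a call. The metabolic genes that rose, G0s2, Slc2a4 and Aldh6a1, are on other lists. All 43 genes of oxidative phosphorylation were above 0, with a median of 0.17 and a range of 0.02 to 0.26. Sdha, the catalytic subunit of complex II, was at 29430.4, 23825, 29356 and 28878 normalized counts in MI+PBS and 35137, 33801, 30404 and 32752 in MI+Agrin (0.25 ± 0.08, adjusted p = 0.148), and Ndufs3, a subunit of complex I, at 2889.6 to 3677 normalized counts in MI+PBS and 3762 to 4217 in MI+Agrin (0.23 ± 0.08, adjusted p = 0.154). All 34 genes of fatty acid uptake and oxidation were above 0 (median 0.23), with Acadm, the medium-chain acyl-CoA dehydrogenase, at 0.31 ± 0.10 (adjusted p = 0.148) and Echs1, the short-chain enoyl-CoA hydratase, at 0.29 ± 0.09 (adjusted p = 0.15). Of 35 genes of the citric acid cycle and mitochondrial regulators, 32 were above 0 (median 0.18). MI+PBS replicate 2 was the lowest library for Sdha, at 23825 normalized counts, and had the lowest share of reads in its 10 highest genes, 7.94% against 9.71% to 10.8% in the other infarcted libraries. Without MI+PBS replicate 2 and MI+Agrin replicate 1, the medians were 0.13 for oxidative phosphorylation (41 of 43 above 0), 0.11 for fatty acids (33 of 34) and 0.11 for the citric acid cycle (30 of 35). The sarcomere list had a median of 0.12, and 0.04 without the pair. With only MI+PBS replicate 2 left out, the medians were 0.11 for oxidative phosphorylation, 0.12 for the citric acid cycle, 0.125 for fatty acids and 0.07 for the sarcomere. The share of muscle in the samples and its part in these medians was not tested.

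**Figure D3:**
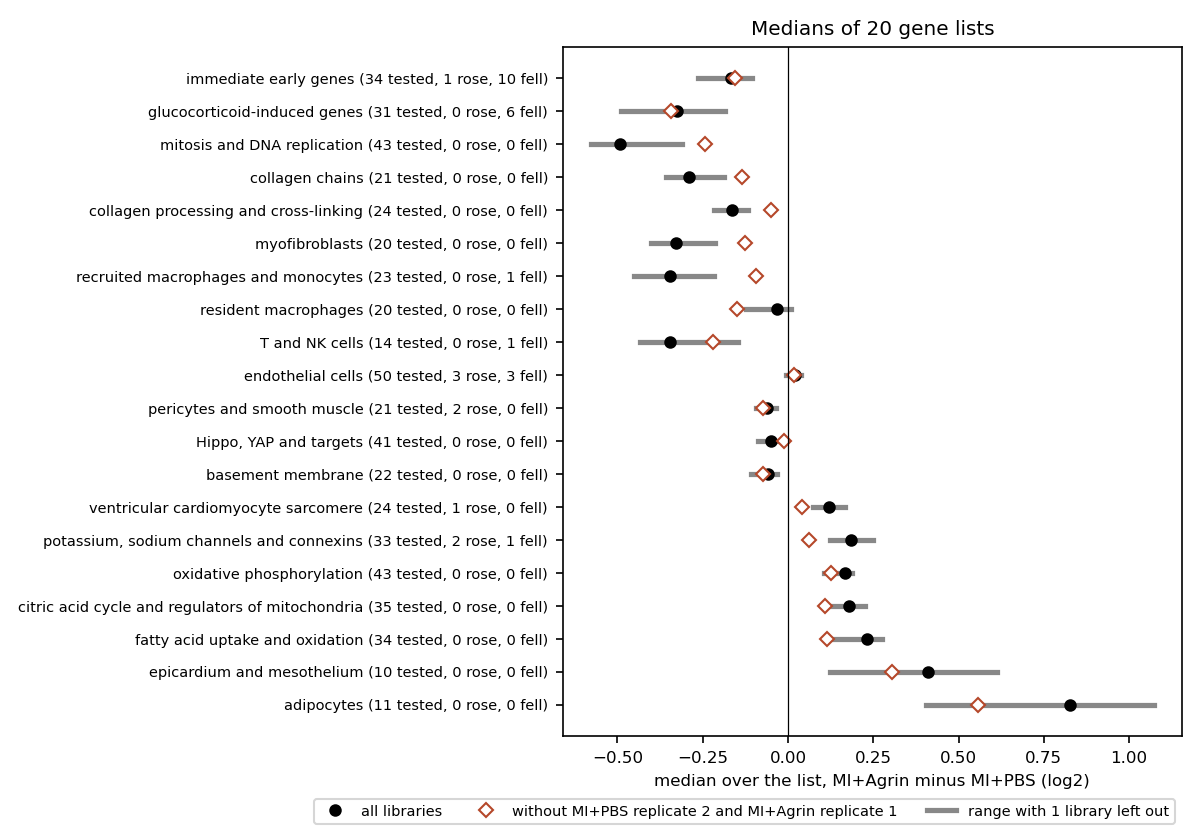
Median difference between MI+Agrin and MI+PBS (log2, horizontal axis) of 20 gene lists with the number of members tested, risen and fallen. Black points use all libraries, grey bars span the values with 1 library left out, the vertical line marks 0, and open diamonds leave out a pair, replicate 2 of MI+PBS with replicate 1 of MI+Agrin, where the median for mitosis moves from -0.49 to -0.24.

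Neither Agrn nor the genes for its receptors passed. Agrn was at 2525, 2224, 2836 and 2558 normalized counts in MI+PBS and 3098, 2168, 2425 and 2494 in MI+Agrin, with overlapping groups and a difference of -0.00 ± 0.10 (adjusted p = 0.999). Agrin given as protein would not appear in this count, and the labels do not give the form used. Dag1, which encodes dystroglycan, was at 13669.5, 13292, 15213 and 15367 normalized counts in MI+PBS and 15940.4, 15450.5, 14814 and 16667 in MI+Agrin (0.13 ± 0.06, adjusted p = 0.3). Lrp4, the receptor at the neuromuscular junction, was at 399, 413, 404 and 454 normalized counts in MI+PBS and 515, 443, 497 and 451 in MI+Agrin (0.19 ± 0.07, adjusted p = 0.17), and Yap1 at 2716, 2701, 3395 and 2772 normalized counts in MI+PBS and 3508, 3073, 2938 and 3054 in MI+Agrin (0.12 ± 0.08, adjusted p = 0.405), with MI+PBS replicate 3 the highest vehicle library. Among receptors of agrin and members of the dystrophin complex, 27 genes, Dtna alone passed, with a median of 0.03, where 1.64% of all genes tested passed. Of 41 genes of the Hippo pathway and YAP targets, 0 passed, with a median of -0.05. The 2 with the smallest p were the kinase gene Nuak2 (-0.56 ± 0.16, adjusted p = 0.105) and the growth factor gene Tgfb2 (-0.52 ± 0.16, adjusted p = 0.115). Of 22 basement membrane genes, 0 passed (median -0.06), with Lama4, a laminin chain of vessels, nearest (-0.23 ± 0.06, adjusted p = 0.0732). In limma's test across all genes, 2802 had an unadjusted p under 0.05. Among 24 cardiac transcription factors, 0 passed, and Nkx2-5 (0.46 ± 0.11, adjusted p = 0.0583) and Irx5 (0.70 ± 0.20, adjusted p = 0.0968) were nearest. A p that misses the threshold does not show that these levels are equal.

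Markers of fat were uneven between libraries. The fitted difference of Ucp1, the uncoupling protein of brown adipocytes, was the largest of all genes, at 4.00 ± 1.45 (adjusted p = 0.179), and it did not pass. Its levels were 0.97, 1.94, 0 and 2.96 normalized counts in MI+PBS and 829, 6.91, 39.4 and 4.70 in MI+Agrin. MI+Agrin replicate 1 was far above the other 11 libraries, and sham libraries ranged from 0 to 60.7. Plin1, which coats lipid droplets of adipocytes, was at 44.7, 93.1, 36.2 and 119 normalized counts in MI+PBS and 401, 98.7, 181 and 107 in MI+Agrin (1.34 ± 0.45, adjusted p = 0.154), and 2 genes chosen after their values were seen showed the same library on top. These were the adipokine gene Adipoq, at 92.3, 215, 97.2 and 396 normalized counts in MI+PBS and 758, 148, 435 and 157 in MI+Agrin (0.83 ± 0.56, adjusted p = 0.442), and the leptin gene Lep, at 9.72, 5.82, 5.17 and 13.8 normalized counts in MI+PBS and 118, 6.91, 23.5 and 16.9 in MI+Agrin (1.49 ± 0.64, adjusted p = 0.235). Adipoq and Lep were picked on these values and so add no support for MI+Agrin replicate 1 standing apart. All 11 adipocyte markers were above 0, with a median of 0.83 (0.56 without MI+PBS replicate 2 and MI+Agrin replicate 1, 0.41 without MI+Agrin replicate 1 and 0.55 without MI+PBS replicate 1), and none passed. Their sums were 8852 to 13902 normalized counts in MI+PBS and 11588 to 18433 in MI+Agrin. Ucp1, Plin1, Adipoq and Lep, each at 829 normalized counts or less in every library, were a minor part of these sums. Whether fat tissue went into these samples unevenly was not tested. G0s2, which fat also expresses, was at 198.9 to 411.0 normalized counts in MI+PBS and 712.9 to 1020.5 in MI+Agrin. The part of fat in its level was not tested.

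**Figure D4:**
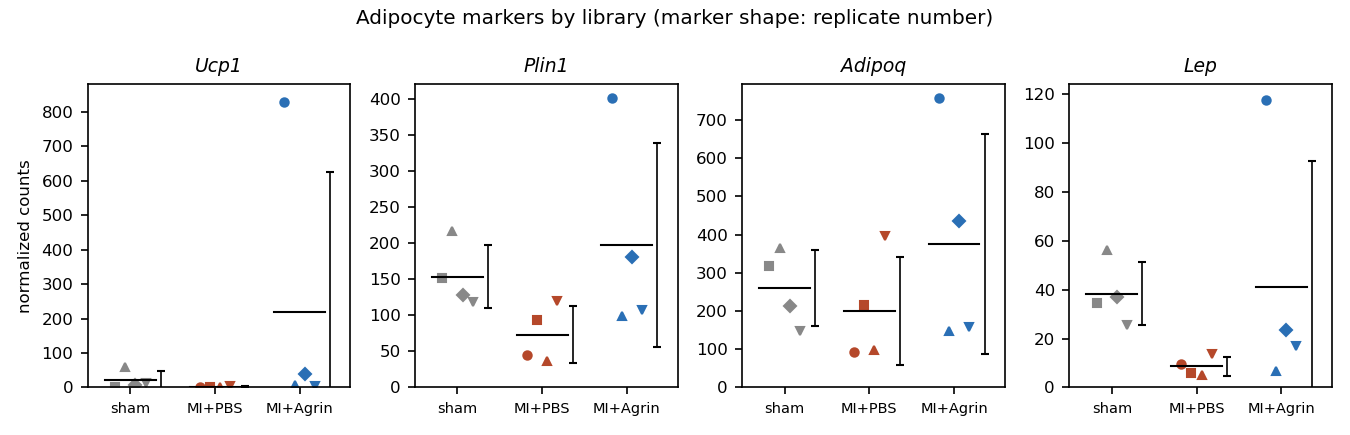
Normalized counts (vertical axes, from 0) of 4 adipocyte markers in each library of the sham, MI+PBS and MI+Agrin groups. Marker shapes are replicate numbers, horizontal lines are means and bars SDs of 4 libraries, and MI+Agrin replicate 1 (circle) is the highest library in each panel, at 829.0 for Ucp1. Adipoq and Lep were chosen after their values were seen.

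In mm10, Nr4a1 lies on chromosome 15 from 101254269 to 101274795, Errfi1 on chromosome 4 from 150853919 to 150868892 and Sik1 on chromosome 17 from 31844250 to 31855804. Arrdc3 lies on chromosome 13 from 80883384 to 80896042 and S1pr1 on chromosome 3 from 115710433 to 115715072. Of the genes that rose, Fam102a lies on chromosome 2 from 32535332 to 32569756, Adora2a on chromosome 10 from 75316877 to 75334784, Myct1 on chromosome 10 from 5593775 to 5606904, Kdr on chromosome 5 from 75932827 to 75978458 and Kcnj8 on chromosome 6 from 142564837 to 142571614. Counts are per gene over its exons, and no transcript was told apart.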

How the data were processed

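Poly-A RNA of 12 hearts was sequenced as single reads. The submitters' processing notes name the mm10 build and the tools STAR 2.4.2a, DESeq2 1.10.1, cutadapt and HTSeq. Tool roles, annotation and strand setting were not given in the sources used here, and how they split overlapping genes is unknown. The deposited signal values are normalized counts per the file headers, 1 per gene and library. Values of 11 libraries are whole multiples of a step (100% within 0.0055 and a small allowance that grows with the value), which gave whole reads. Sham replicate 2 was left out of tests on reads.

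The fit took all genes that averaged 5 or more, as log2(value + 1), with R 4.3.3 and limma 3.58.1, using an intensity trend and a group-means model of 12 libraries. P-values were adjusted over all genes by the Benjamini-Hochberg method. The members, lists, motifs and rules were chosen with earlier results of these data known. Named genes were Agrn, Dag1, Lrp4 and Yap1, and, of called genes averaging 50 or more with separated groups and a gene name, the 15 largest differences, 10 smallest p-values and 6 highest means in each direction. Up to 6 genes past the threshold per list were added, or the 2 with the smallest p where none passed. Genes outside the rule (Adipoq, Lep, Creb5, Slc25a25, Slc10a6, and Fosb, Fosl2, Myc and Btg2, beyond the 6 of their list) were chosen after their values were seen.

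Symbols were matched to GENCODE M21 for coordinates, 15210 of 16218 genes by symbol and 861 by synonym, and promoter sequences come from RefSeq. Alternatives were other pseudocounts, filters and thresholds, TMM factors, no trend, 8 libraries, tests of recovered reads with DESeq2 1.42.0 or edgeR 4.0.16, a block for the replicate number, library quality weights and libraries left out. The steps were tested on simulated counts. Figures were drawn with matplotlib 3.10.9. As the design text counts 4 animals in each group, the spread tested is that among hearts.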

Additional observations from a re-analysis of the deposited data

Results flagged for a closer look

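In 230 groups of 4 libraries (115 named genes in MI+PBS and MI+Agrin), 12 held a library whose gap to the nearest other exceeded Dixon's critical share of the range, 5.22% where chance gives about 1 in 20. In MI+Agrin replicate 1, Ucp1 reached 829.0 normalized counts, beside 4.70 to 39.4 in the rest of its group, Lep was at 117.6 against 6.91 to 23.5, and Kcnj8 at 794.5 against 676 to 692. In MI+Agrin replicate 5, Csrnp1 was at 480.6 against 416 to 418 and Fosl2 at 2167 against 1726 to 1754. In MI+Agrin replicate 3, Ndufs3 was at 4217 against 3762 to 3776. In MI+PBS replicate 1, Sik1 was at 2624 against 1904 to 1943 and Fosb at 116.6 against 69.8 to 76.5. In MI+PBS replicate 3, Yap1 was at 3395 against 2701 to 2772 and Myct1 at 382.4 against 322 to 326. In MI+PBS replicate 2, Myzap was the lowest at 8571 against 9814 to 10043, and Sdha at 23825 against 28878 to 29430.4.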

How the results depend on the processing

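The count of genes past the threshold was 245 (112 higher, 133 lower). With 1 library left out it ran from 137 to 327 (58 to 167 higher, 79 to 160 lower), with replicate 2 of MI+PBS and replicate 1 of MI+Agrin both out it was 137 (52 higher, 85 lower), and with the 8 infarcted libraries alone 93 (32 and 61). DESeq2 on recovered reads called 602 (282 and 320). The replicate number as a block gave 75 (27 and 48) and kept 43 of the 90 named calls. Deviations of same-numbered MI+PBS and MI+Agrin libraries correlated at -0.17, 0.08 and -0.11, and those of differently numbered ones at -0.22 to 0.30. So few pairs cannot show whether the numbers pair the animals, and the labels do not say. Quality weights gave 70 higher genes. At a threshold of 0.1 there were 594 (283 and 311) and at 0.01 there were 83 (29 and 54). Other pseudocounts, filters, TMM factors, no trend and edgeR (192) stayed within 1.5 times of 245. The cause of these shifts was not tested. Of the 90 named genes past the threshold, 50 stayed past it with any 1 library left out, 35 did so under each other setting too, and none changed direction. The value of Agrn, -0.00, was positive with TMM factors (0.00192), edgeR (0.00791) and DESeq2 (0.00721), and with 1 library left out ran from -0.099 to 0.072. Of the genes called, 12 had means under 50.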
